A study of Mus musculus with 12 samples.

Results

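The 10 genes described here encode proteins of the extracellular matrix, the network of secreted proteins around cells: the fibrillins Fbn1 and Fbn2, the fibrillin-binding protein Ltbp1, the cross-linking enzyme Lox, the glycoproteins Fn1 and Sparc, the collagen IV chains Col4a1 and Col4a2, and the laminin chains Lama5 and Lamc1. They were taken from the count table by gene symbol, and all 10 of the 49671 genes in the table that carry these symbols were found and passed the filter on low counts. RNA was sequenced in 12 mouse libraries in 4 groups of 3: wild type, a knockout (KO) of Lyl1, a KO of Scl, whose gene symbol is Tal1, and a double KO of both. The labels describe the material of every group as pooled embryos of embryonic day 9.5 and number the libraries as biological replicates. No source used here gives the strain, the alleles, the number of embryos in a pool or whether replicates came from separate litters, so p-values measure only the spread between these libraries. The series compares the loss of Lyl1, of Scl and of both. The genes were chosen by name with the group levels of these libraries in view, among them the high level of Fbn2 in Scl KO, so that value is given below with no test, and the tests of the other values are not independent evidence.

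Fibrillins assemble outside the cell into microfibrils, which carry elastin and hold latent TGF-beta in place through the latent TGF-beta binding proteins. Collagen IV and laminins are trimers that build basement membranes, the thin sheets under epithelia and endothelia and around the vessel sinusoids of the marrow. Megakaryocytes, the platelet precursors, are known to make matrix proteins themselves and to sit against such membranes. Both deleted genes encode blood transcription factors of the basic helix-loop-helix class, which bind the DNA motif CANNTG, often beside a GATA motif.

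The libraries held 24324685 to 29212443 counts each. In units of CPM (TMM-normalised counts on a scale of a common library size), a gene with a count of 0 could lie as high as 0.0936 to 0.131, which is 3 counts. This limit covers counting error only. Tal1 was at 513 to 643 CPM in the libraries of wild type and Lyl1 KO and at 77.7 to 118 CPM in those of Scl KO and double KO. Lyl1 was at 85.5 to 90.4 CPM in Lyl1 KO and 56.5 to 108 CPM in the double KO, against 149 to 203 CPM in wild type, and its change in Lyl1 KO was not called (adjusted p = 0.286, edgeR quasi-likelihood test). The markers went against the tissue label. Markers of embryonic tissues such as heart, neural tube and somite, 14 in all, summed to between 0.999 and 8.06 CPM, and 5 of them were at 0 in every library. The 12 megakaryocyte and platelet markers summed to between 15960 and 68890 CPM. In bulk RNA, fewer cells of a type and less RNA per cell cannot be told apart.

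In wild type the 10 genes spanned a wide range of abundance. Per kilobase of gene model, Ltbp1 stood highest at 103 CPM per kb, followed by Lamc1 at 21.9, Sparc at 12.96, Col4a1 at 7.37, Fn1 at 6.75, Col4a2 at 4.60, Lox at 1.93, Fbn1 at 1.30, Lama5 at 0.660 and Fbn2 at 0.115. Ltbp1 was the 117th most abundant of all genes by wild-type CPM. In the double KO, Ltbp1 still led at 47.6 CPM per kb, and the next were Lox at 26.9, Lamc1 at 6.52 and Fbn2 at 5.91. Ltbp1, Lamc1 and Lama5 had their lowest values in the double KO, where Lama5 overlapped Lyl1 KO. Fbn2 and Lox had their highest there, with Lox between 23.1 and 341 CPM within that group. Fbn1, Fn1, Sparc, Col4a1 and Col4a2 varied strongly between libraries of the same group.

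**Figure D1:**
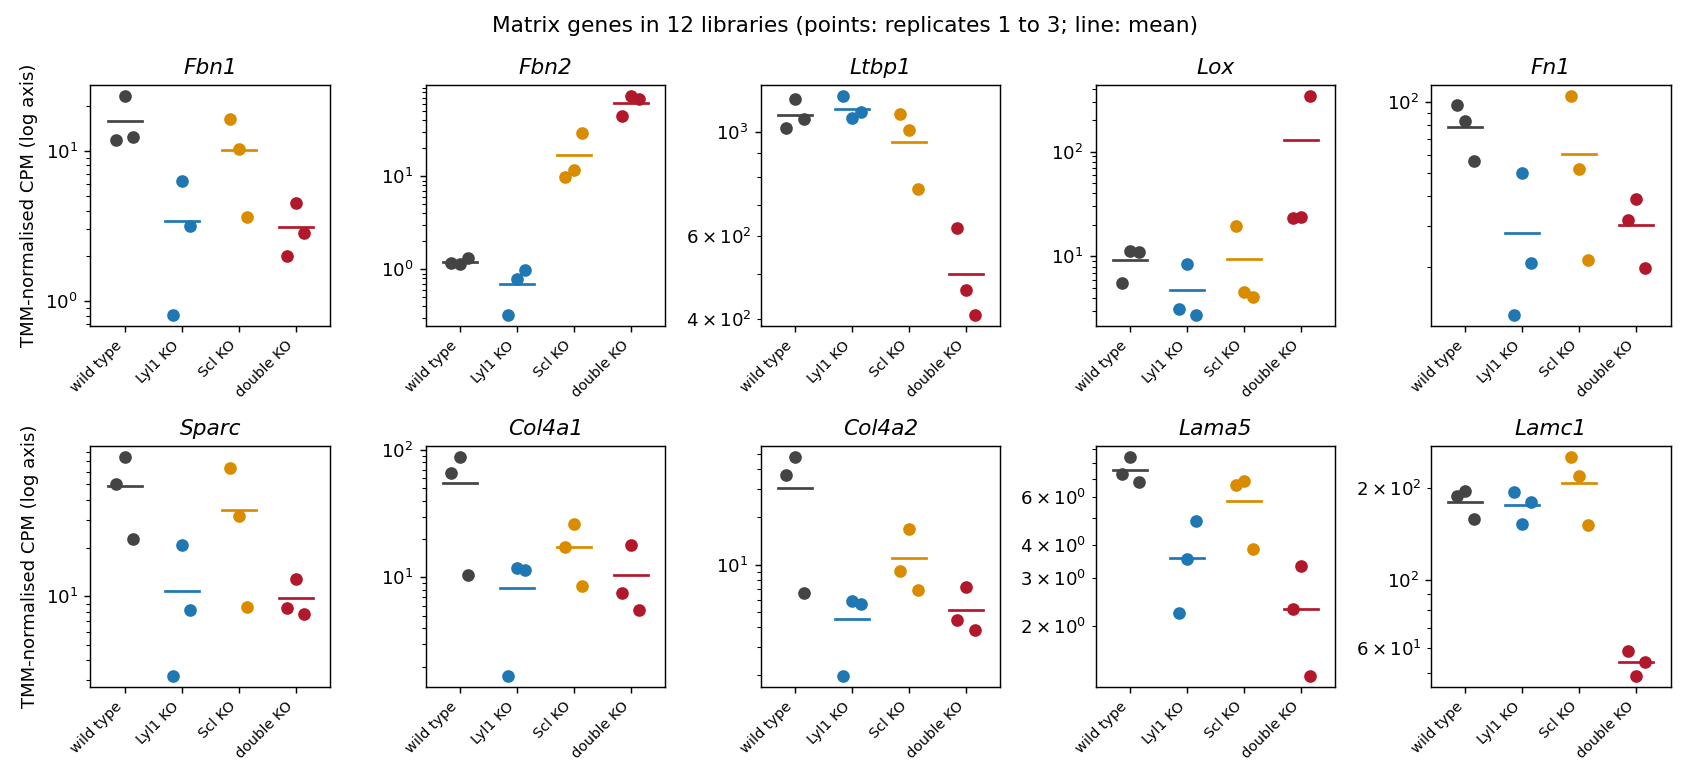
TMM-normalised CPM of the 10 matrix genes, each on a log axis of its own, in wild type, Lyl1 KO, Scl KO and double KO (points are the 3 libraries, lines the group means). Lamc1 sat between 48.9 and 58.6 CPM in the double KO and at 152 CPM or more in every other library, and Fbn2 went from 1.13 to 1.31 CPM in wild type to between 44.8 and 73.5 CPM in the double KO.

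Fbn2 (ENSMUSG00000024598), on the minus strand of chromosome 18 from 58008623 to 58209926 (GRCm38), encodes fibrillin-2, the fibrillin best known from embryonic microfibrils. Wild type had 1.17, 1.13 and 1.31 CPM, and Lyl1 KO had 0.324, 0.791 and 0.978 CPM. In Scl KO it was at 9.86, 11.8 and 29.4 CPM, and in the double KO at 44.8, 73.5 and 67.6 CPM. The groups were ordered Lyl1 KO, wild type, Scl KO and double KO with no overlap between neighbours, although the values of Lyl1 KO and wild type lay close together and near the low end of what was counted. Wild type averaged 1.20 ± 0.0955, Scl KO 17 ± 10.8 and the double KO 61.9 ± 15.2 CPM (mean ± SD, n = 3). The log2 fold change of Scl KO against wild type was 3.81, given with no standard error because these values helped choose the gene. In the double KO against wild type, Fbn2 rose by 5.68 ± 0.47 on the log2 scale (± standard error, adjusted p = 5.16e-06, edgeR quasi-likelihood test). Every adjusted p below is from that test, with Benjamini-Hochberg adjustment over all genes tested, unless another tool is named. Fbn2 also rose by 1.86 ± 0.38 in the double KO against Scl KO (adjusted p = 0.00474). Against wild type, Lyl1 KO differed by -0.79 ± 0.53 (adjusted p = 0.740).

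The interaction asks whether the loss of Lyl1 acts differently without Scl than with it, as the double KO minus Scl KO difference less the Lyl1 KO minus wild type difference. For Fbn2 the interaction uses the Scl KO values that helped choose the gene, as does the double KO test against Scl KO. Neither is independent evidence. The interaction of Fbn2 was 2.65 ± 0.65 on the log2 scale (adjusted p = 0.0259). This call was lost when any of wild type 1, 2 or 3, Lyl1 KO 1 or 2, Scl KO 1 or 2 or double KO 2 was left out (adjusted p from 0.0528 to 0.0775), with values from 2.32 to 3.31 over all libraries left out in turn. It was also lost with limma-voom (adjusted p = 0.131) and without a filter on low counts (0.0929). Genes whose log2 CPM followed Fbn2 most closely over the 12 libraries, among 11079 named protein-coding genes with a mean of at least 1 CPM, were Etl4 (Pearson r = 0.987), Rhoh, a GTPase of blood cells (0.985), and Adgrg3, an adhesion receptor (0.983). Etl4 averaged 3.14 CPM in wild type, 2.64 in Lyl1 KO, 22.9 in Scl KO and 86.4 in the double KO. These correlations are descriptions over libraries that share their group differences.

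Fbn1 (ENSMUSG00000027204, chromosome 2, 125300594 to 125507993, minus strand) encodes fibrillin-1, the main fibrillin of adult connective tissue. Wild type had 11.8, 23.2 and 12.4 CPM, Lyl1 KO 0.810, 6.33 and 3.15 CPM, Scl KO 16.3, 10.2 and 3.64 CPM, and the double KO 2.01, 4.48 and 2.84 CPM. All wild-type libraries lay above those of Lyl1 KO and double KO, while Scl KO overlapped every group. Fbn1 fell by 2.34 ± 0.65 on the log2 scale in the double KO against wild type (adjusted p = 0.0157). The call was lost without wild type 2 (adjusted p = 0.0634) or double KO 1 (0.0520) and without the filter (0.0711). Lyl1 KO against wild type gave -2.20 ± 0.65 and was not called by edgeR (adjusted p = 0.448), though DESeq2's Wald test called it (0.0433).

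The make-up of fibrillin transcripts shifted between the groups. Per kb, Fbn2 made up 10.2%, 5.35% and 10.9% of Fbn1 and Fbn2 together in the wild-type libraries, and 31.6%, 12.6% and 26.5% in Lyl1 KO. The share was 41.2%, 57.1% and 90.3% in Scl KO and 96.3%, 95.0% and 96.5% in the double KO. The Scl KO libraries were the most spread, with Scl KO 3 close to the double KO. The Lyl1 KO shares rest on few counts, with 8 of Fbn2 and 20 of Fbn1 in Lyl1 KO 1, and edgeR called neither fibrillin there. The Scl KO shares use the Fbn2 values that helped choose the gene. Both fibrillins together were at 1.42 ± 0.523 CPM per kb in wild type, 0.349 ± 0.250 in Lyl1 KO, 2.45 ± 0.585 in Scl KO and 6.17 ± 1.54 in the double KO (mean ± SD, n = 3).

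**Figure D2:**
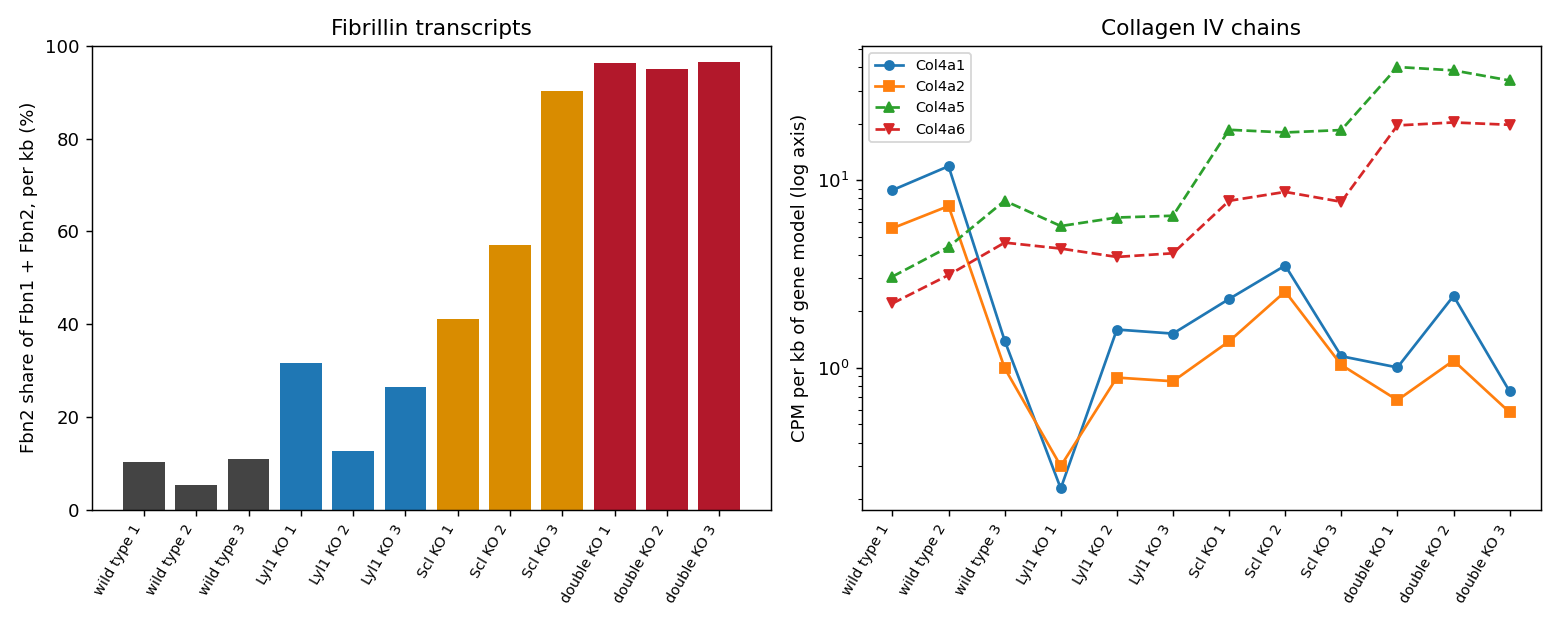
Left, Fbn2 as a percentage of Fbn1 plus Fbn2, per kb of gene model, in each library (bars from 0). Right, CPM per kb of 4 collagen IV chains in each library on a log axis: Col4a1 and Col4a2 were highest in wild type 1 and 2, while Col4a5 and Col4a6 were highest in the 3 double KO libraries.

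Ltbp1 (ENSMUSG00000001870, chromosome 17, 75005568 to 75392512, plus strand) encodes a latent TGF-beta binding protein, which tethers the latent growth factor to microfibrils. It was at 1018, 1174 and 1061 CPM across wild type, 1190, 1066 and 1098 CPM across Lyl1 KO, and 1090, 1009 and 756.0 CPM in Scl KO. The double KO had 625.5, 462.3 and 408.8 CPM. Wild type, Lyl1 KO and Scl KO overlapped, and every double KO library lay below every other library. Ltbp1 fell by 1.12 ± 0.18 on the log2 scale in the double KO against wild type (adjusted p = 0.00046) and by 0.93 ± 0.18 against Scl KO (adjusted p = 0.00317). Against wild type the change was 0.05 ± 0.17 in Lyl1 KO and -0.19 ± 0.17 in Scl KO (adjusted p = 0.974 and 0.639). The interaction was -0.98 ± 0.25 (adjusted p = 0.0298), and it was not called without wild type 1 or 3, Lyl1 KO 1 or 3, Scl KO 1 or 2 or double KO 2 (adjusted p from 0.0526 to 0.0792). Ltbp1 made up between 95.5% and 98.5% of the transcripts of the 4 LTBP genes per kb in all 12 libraries.

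Beside this fall, the sum of the 12 megakaryocyte markers was lower in the double KO, at 15960 to 32460 CPM, than in wild type (54660 to 62360), Lyl1 KO (59820 to 68890) and Scl KO (41630 to 56960). None of these markers was at 0 in all libraries. Their part in the values of Ltbp1 and Lamc1 was not tested. RefSeq start-site entries were at hand for 6 of the 10 genes. The 250 bases before the start are shown for Ltbp1, which has 2 such entries, as the gene with a called interaction that can be shown, so that the motifs named above can be looked for in it (capitals mark GATA or its reverse complement TATC and, on either strand, CANNTG, with no overlap between the motifs).
Ltbp1 chr17:75005279-75005528, plus strand, GRCm38.p6: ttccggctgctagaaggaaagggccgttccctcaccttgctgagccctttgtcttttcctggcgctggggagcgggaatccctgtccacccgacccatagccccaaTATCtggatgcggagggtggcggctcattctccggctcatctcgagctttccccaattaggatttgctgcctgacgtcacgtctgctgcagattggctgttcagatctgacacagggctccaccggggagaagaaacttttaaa
This window, from the first of the 2 entries, held 1 GATA or TATC and 0 CANNTG. The window of the other entry was not searched. Of 32851 RefSeq windows of 250 bases, 66.2% held CANNTG, 53.6% held GATA or TATC, and 37.3% held both, so a match describes the letters only.

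Lox (ENSMUSG00000024529, chromosome 18, 52516069 to 52529867, minus strand) encodes lysyl oxidase, which cross-links collagen and elastin. It was at 5.54, 11.2 and 11.1 CPM across wild type, 3.12, 8.40 and 2.77 CPM across Lyl1 KO, and 19.3, 4.60 and 4.13 CPM in Scl KO. In the double KO it was at 23.1, 23.9 and 341 CPM. The double KO lay above all other libraries, and double KO 3 stood far above double KO 1 and 2. The log2 change of the double KO was 3.80 ± 1.05 against wild type (adjusted p = 0.0154) and 3.80 ± 1.05 against Scl KO (adjusted p = 0.0256). Without double KO 3 these were 1.33 and 1.33, and neither was called (adjusted p = 0.139 and 0.192). The call against wild type was also lost without wild type 1 (0.0753) or wild type 3 (0.0612), and that against Scl KO without wild type 3 (0.0553), Scl KO 2 (0.114) or Scl KO 3 (0.0968). DESeq2 gave no adjusted p for Lox, and limma-voom called neither change (0.0824 and 0.0879). Other losses of the call against Scl KO came without the filter (0.120), with the replicate number as a block (0.172) and with the compared libraries alone (0.0865). Of 18 alternatives, the call against wild type was lost in 6 and that against Scl KO in 8. The interaction was 4.75 ± 1.44 and not called (adjusted p = 0.0623), though it was called without double KO 1 (0.0249) or double KO 2 (0.0449). Double KO 3 also had the highest Ccn2, a secreted growth regulator, at 71.2 CPM against 6.10 and 11.2 CPM in the other double KO libraries, and the highest Plod2, a collagen lysyl hydroxylase, at 43.4 against 13.8 and 21.0 CPM. What sets this library apart was not tested.

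Lamc1 (ENSMUSG00000026478, chromosome 1, 153218922 to 153332786, minus strand) encodes laminin gamma 1, the gamma chain of most laminin trimers. Wild type had 188.8, 195.7 and 158.1 CPM, Lyl1 KO 194.7, 152.7 and 180.6 CPM, and Scl KO 253.6, 218.5 and 152.2 CPM. The double KO had 58.6, 48.9 and 54.3 CPM. The first groups overlapped one another, and the double KO formed a tight cluster below them. Lamc1 fell by 1.75 ± 0.18 on the log2 scale in the double KO against wild type (adjusted p = 2.05e-05), by 1.95 ± 0.18 against Scl KO (adjusted p = 3.66e-05) and by 1.71 ± 0.18 against Lyl1 KO (adjusted p = 2.09e-05). Lyl1 KO differed from wild type by -0.04 ± 0.17 and Scl KO by 0.20 ± 0.17 (adjusted p = 0.978 and 0.598). The interaction was -1.91 ± 0.24 (adjusted p = 0.00102) and was called in all 18 alternatives run, with values from -2.08 to -1.75. Lamc1 made up 96.3% to 99.8% of the 3 gamma chains per kb in the 12 libraries.

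Lama5 (ENSMUSG00000015647, chromosome 2, 180176373 to 180225859, minus strand) encodes laminin alpha 5, an alpha chain that pairs with gamma 1. It was low throughout, at 7.29, 8.45 and 6.82 CPM across wild type, 2.23, 3.54 and 4.89 CPM across Lyl1 KO, 6.65, 6.89 and 3.85 CPM in Scl KO, and 2.31, 3.32 and 1.31 CPM in the double KO. Wild type lay above Lyl1 KO and double KO with no overlap, and Scl KO above the double KO. Lama5 fell by 1.70 ± 0.37 in the double KO against wild type (adjusted p = 0.00369), and this call was kept in all 19 alternatives. It fell by 1.32 ± 0.36 against Scl KO (adjusted p = 0.0246), a call lost without Scl KO 1 (0.0834), Scl KO 2 (0.0923) or double KO 3 (0.0607) and in the 6 libraries compared alone (0.0694). In Lyl1 KO against wild type the change was -1.08 ± 0.36 and not called (adjusted p = 0.509). Its 250 bases before the RefSeq start are shown for comparison with Ltbp1, with the same motifs in capitals.
Lama5 chr2:180225860-180226109, minus strand, GRCm38.p6: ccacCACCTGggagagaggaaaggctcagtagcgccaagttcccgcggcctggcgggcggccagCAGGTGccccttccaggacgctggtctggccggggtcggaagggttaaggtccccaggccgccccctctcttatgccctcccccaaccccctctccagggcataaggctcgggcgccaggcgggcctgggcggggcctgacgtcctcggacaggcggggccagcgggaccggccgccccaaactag
This window held 2 CANNTG and 0 GATA or TATC.

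Col4a1 (ENSMUSG00000031502, chromosome 8, 11198423 to 11312826, minus strand) and Col4a2 (ENSMUSG00000031503, chromosome 8, 11312805 to 11449287, plus strand) encode the chains of the collagen IV trimer found in nearly every basement membrane. They start head to head, and their gene models overlap by 22 bases on opposite strands, which strand-specific counting keeps apart. Col4a1 was at 66.0, 88.5 and 10.4 CPM across wild type, 1.70, 11.9 and 11.4 CPM across Lyl1 KO, 17.4, 26.2 and 8.61 CPM in Scl KO, and 7.50, 18.03 and 5.59 CPM in the double KO. Col4a2 was at 36.7, 48.2 and 6.60 CPM across wild type, 1.99, 5.88 and 5.62 CPM across Lyl1 KO, 9.17, 16.9 and 6.86 CPM in Scl KO, and 4.45, 7.24 and 3.84 CPM in the double KO. Wild type 1 and 2 lay above every KO library for both genes, but wild type 3 lay inside the range of the KO groups. The ratio of Col4a1 to Col4a2 per kb stayed between 0.760 and 2.21 with a median of 1.54 over the 12 libraries, while Col4a1 itself varied 52.0-fold.

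In the double KO against wild type, Col4a1 fell by 2.41 ± 0.80 (adjusted p = 0.036) and Col4a2 by 2.56 ± 0.64 (adjusted p = 0.00882) on the log2 scale. The Col4a1 call was lost without wild type 1 (0.0822), wild type 2 (0.134), double KO 1 (0.0966) or double KO 3 (0.125), with limma-voom (0.0889), without the filter (0.140) and in the 6 libraries alone (0.0516). The Col4a2 call was lost with limma-voom alone of the 19 alternatives (0.0513). With Scl KO set against wild type, the changes were -1.66 ± 0.78 and -1.47 ± 0.61 and not called (adjusted p = 0.289 and 0.224). In Lyl1 KO against wild type they were -2.72 ± 0.82 and -2.76 ± 0.65 and not called (adjusted p = 0.453 and 0.286). Without wild type 3, Col4a2 was called in Lyl1 KO (-3.25, adjusted p = 0.0234) and in Scl KO (-1.96, adjusted p = 0.0261). DESeq2 called it in Lyl1 KO with all libraries (0.0180).

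Fn1 (ENSMUSG00000026193, chromosome 1, 71585520 to 71653200, minus strand) encodes fibronectin, the adhesive glycoprotein of matrix and plasma. It was at 97.1, 83.1 and 56.3 CPM across wild type, 12.6, 50.4 and 20.9 CPM across Lyl1 KO, 107, 52.4 and 21.5 CPM in Scl KO, and 31.8, 39.1 and 19.9 CPM in the double KO. Wild type lay above Lyl1 KO and double KO, and Scl KO overlapped every group. The log2 change in the double KO against wild type was -1.38 ± 0.56 and not called (adjusted p = 0.0744). It was called in the 6 libraries alone (0.0097) and without Lyl1 KO 2 (0.0460), Scl KO 1 (0.0456) or Scl KO 3 (0.0356), which are not part of the comparison but enter the estimate of the spread. In Lyl1 KO the change was -1.49 ± 0.56 (adjusted p = 0.551).

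Sparc (ENSMUSG00000018593, chromosome 11, 55394500 to 55423183, minus strand) encodes a collagen-binding glycoprotein. It was at 50, 74.5 and 22.8 CPM across wild type, 3.20, 20.8 and 8.17 CPM across Lyl1 KO, 63.2, 31.8 and 8.61 CPM in Scl KO, and 8.51, 12.9 and 7.74 CPM in the double KO. Wild type 1 and 2 and Scl KO 1 were highest, and Scl KO 3 was as low as the double KO. Sparc fell by 2.34 ± 0.73 in the double KO against wild type (adjusted p = 0.0269). The call was lost without wild type 1 (0.0537), wild type 2 (0.0978), double KO 1 (0.0708), double KO 2 (0.0517) or double KO 3 (0.0924) and without the filter (0.114). The change was -2.19 ± 0.73 in Lyl1 KO (adjusted p = 0.509) and, against Scl KO, -1.83 ± 0.72 in the double KO (adjusted p = 0.0988; 0.0268 without Scl KO 3).

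Fbn1, Fn1, Sparc, Col4a1, Col4a2 and Lama5 went up and down together from library to library, with Pearson correlations of log2 CPM between 0.76 and 0.97 over the 12 libraries, which share their group differences. Ltbp1 and Lamc1 formed another pair (r = 0.93), and Fbn2 ran opposite to Ltbp1 (r = -0.86). The genes closest to Col4a1 were Lamb1, a laminin beta chain (0.976), Col4a2 (0.973) and Col3a1, a fibrillar collagen (0.965). Markers of other cell types varied between the same libraries. Pdgfrb and Cdh5, given here, are a choice from their lists, and other members went the other way. Col1a1, Tie1 and Flt1 were highest of wild type in wild type 3. The sum of the endothelial markers was highest in Lyl1 KO, as given below. Pdgfrb, a receptor of mesenchymal and mural cells, was at 12.7, 17.1 and 4.45 CPM across wild type, 0.527, 3.01 and 2.43 CPM across Lyl1 KO, 6.89, 5.39 and 1.72 CPM in Scl KO, and 3.18, 4.68 and 1.75 CPM in the double KO. Cdh5, a junction protein of endothelium, was at 14.3, 19.7 and 1.46 CPM across wild type, 3.79, 9.99 and 3.05 CPM across Scl KO, and at most 2.83 CPM in Lyl1 KO and double KO.

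Of the 11 fibroblast and mesenchyme markers, 10 reached 1 CPM in some library and 0 were at 0 in all. Their sum was 156.6 to 186 CPM in wild type, 13.2 to 95.0 CPM in Lyl1 KO, 35.1 to 360 CPM in Scl KO and 52.0 to 123 CPM in the double KO. In wild type this sum was about level, at 164.9, 185.5 and 156.6 CPM, while Col4a1 was far lower in wild type 3 than in wild type 1 and 2. The 8 smooth muscle and pericyte markers, of which 0 were at 0 in all libraries, summed to 30.7, 41.9 and 14.2 CPM across wild type, 6.85 to 13.6 CPM in Lyl1 KO, 6.19 to 21.6 CPM in Scl KO and 12.98 to 17.5 CPM in the double KO, so that they too were lowest of wild type in wild type 3. Col1a1, Col1a2, Col3a1 and Postn are counted both among the fibroblast markers and among the matrix genes below. Of the fibroblast sum in the double KO, Thy1, which blood cells also express, gave 26.0, 39.7 and 100.4 CPM. The 10 endothelial markers summed to 1310 to 1468 CPM in wild type, 1504 to 1730 CPM in Lyl1 KO, 808.0 to 987.5 CPM in Scl KO and 507.1 to 663.6 CPM in the double KO. Pecam1 and Esam, which platelets also express, gave 733.7 and 298 CPM of the wild-type mean of 1381 CPM. Some low members were, like Cdh5, lowest of wild type in wild type 3: Cldn5 was at 1.71, 1.35 and 0 CPM and Emcn at 4.16, 6.36 and 0.984 CPM across wild type. Tie1 and Flt1 were highest of wild type there, at 112.2 and 220.9 CPM. The sum of the 10 macrophage markers averaged 4510 CPM in wild type, 5932 in Lyl1 KO, 3871 in Scl KO and 3178 in the double KO. That of the 13 markers of parietal and visceral endoderm, of which 3 were at 0 in all libraries, averaged 41.1, 35.8, 49.6 and 54.4 CPM in the same order. The part of any of these cell types in the values of the 6 genes was not tested.

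**Figure D3:**
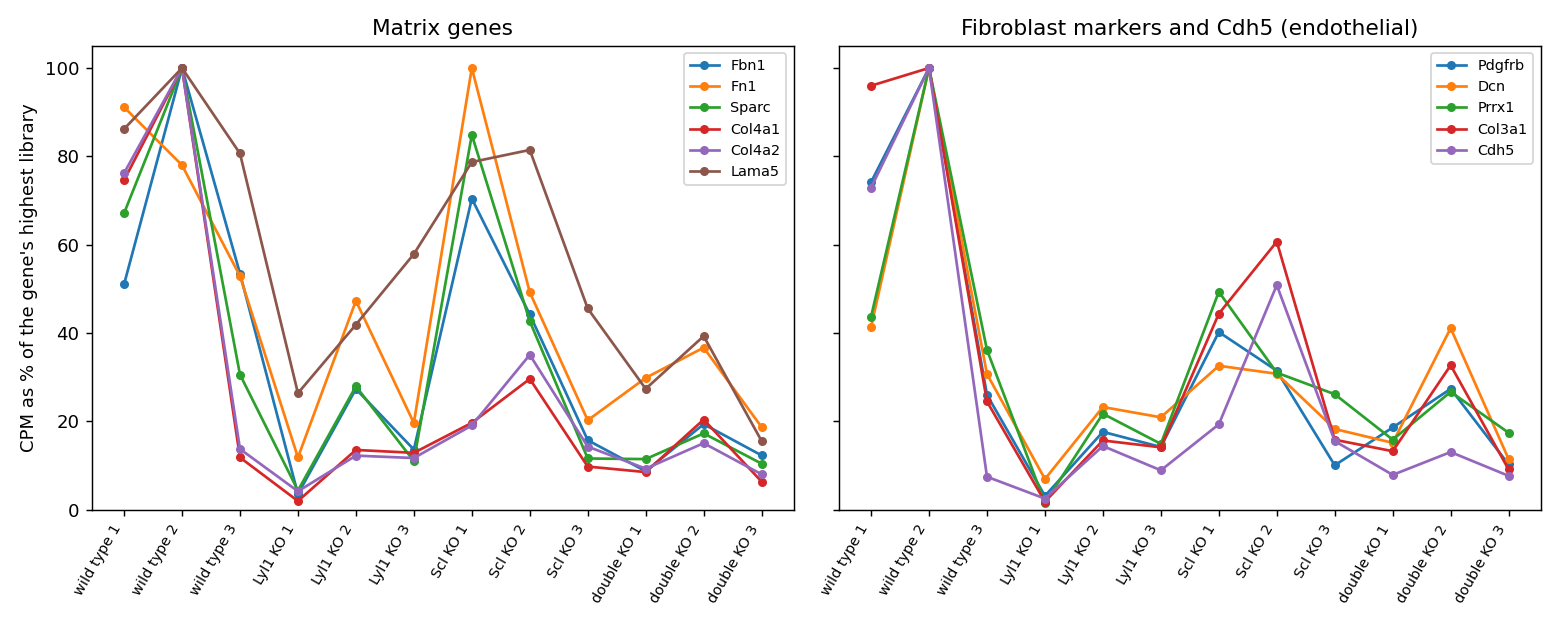
CPM of each gene as a percentage of its highest library, for 6 matrix genes (left) and for 4 fibroblast markers and the endothelial gene Cdh5 (right), in the 12 libraries. Both panels show high values in wild type 2 and low values in Lyl1 KO 1, where Fbn1 was at 0.810 CPM and Pdgfrb at 0.527 CPM. The markers drawn are a choice from their lists. The sum of all 11 fibroblast markers was highest in Scl KO 1 (360 CPM), and that of the 10 endothelial markers in Lyl1 KO 1 (1730 CPM). Col3a1 was also among the genes closest to Col4a1.

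Counting calls over the 10 genes, the double KO against wild type had 2 higher (Fbn2 and Lox) and 7 lower (all others but Fn1), where 34.5% of all 15399 genes tested were called, 16.4% up and 18.1% down. Their median log2 change was -1.72, against 0.04 for all genes. Without the filter on low counts 5 of the 10 were called, and 6 when wild type 1, wild type 2, double KO 1 or double KO 3 was left out. With Scl KO set against wild type and Fbn2 left aside as the value that helped choose the genes, edgeR called 0 of the other 9, where 5.03% of all genes were called (2.29% up and 2.73% down). Col4a2 was the only one of these 9 with an unadjusted p under 0.05 and was called without wild type 3, and limma-voom and DESeq2, which gave no adjusted p for Lox, called none of the 9. In Lyl1 KO against wild type edgeR called 0 of 10, where 0.0714% of all genes were called (0.039% up and 0.0325% down). Unadjusted p-values under 0.05 were found for 6 of the 10, all with lower values in Lyl1 KO, beside 7.99% of all genes (4.57% with lower values), and DESeq2 called 2, limma-voom 0. Without wild type 3, edgeR called 1, Col4a2.

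In the double KO against Scl KO, 5 of 10 were called, Fbn2 and Lox up and Ltbp1, Lamc1 and Lama5 down, beside 19.1% of all genes (8.37% up and 10.8% down). This count was 3 without Scl KO 2, without double KO 3 and in the 6 libraries alone. Against Lyl1 KO, the double KO had Fbn2 and Lox called up and Ltbp1 and Lamc1 down, 4 of 10 beside 35.2% of all genes (17.4% up and 17.9% down). The interaction was called for Fbn2, Ltbp1 and Lamc1, 3 of 10 beside 9.38% of all genes (3.51% up and 5.86% down), and for 1 of 10 without wild type 1, wild type 3, Lyl1 KO 1, Scl KO 1 or Scl KO 2. Comparisons that share a group share its libraries, and the genes were chosen with results known, so nothing is read from these counts beyond the values themselves.

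**Figure D4:**
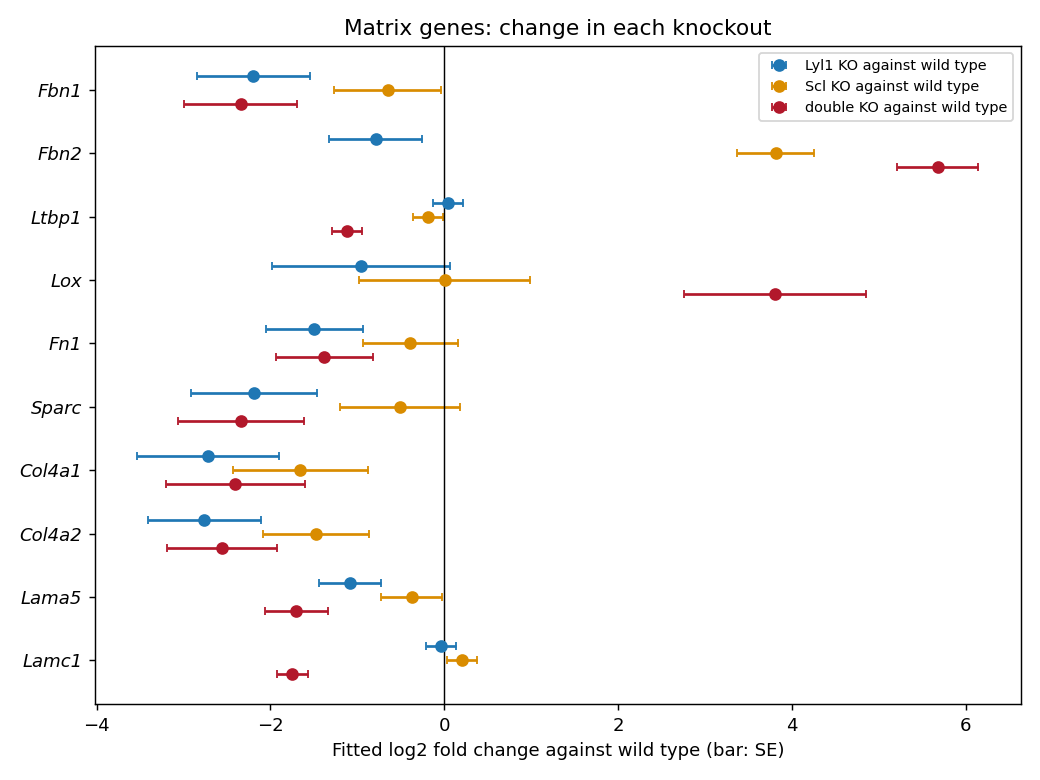
Fitted log2 fold change against wild type (points) with its standard error (bars) for the 10 genes in Lyl1 KO, Scl KO and double KO. Ltbp1 and Lamc1 lay near 0 in both single KOs and at -1.12 and -1.75 in the double KO. Fbn2 lay at 3.81 in Scl KO and 5.68 in the double KO. The Fbn2 value in Scl KO helped choose the gene, so its bar is not read as a test.

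The surrounding matrix genes were read from lists of 137 further genes, of which 120 were tested. In the double KO against wild type, 14 were higher and 35 lower (40.8%, beside 34.5% of all genes), with a median log2 change of -0.76. The 49 calls became 28 without wild type 2 and 32 without double KO 3. In Lyl1 KO against wild type edgeR called 0 of the 120, with 26 at an unadjusted p under 0.05 (7.99% of all genes were), DESeq2 called 4 and limma-voom 0. In Scl KO, 7 were higher and 5 lower (10% of the 120, beside 5.03% of all genes), and 7 in all were called without wild type 1, wild type 2, Scl KO 2 or Scl KO 3. The double KO differed from Scl KO in 31 genes, 10 up and 21 down (25.8%, beside 19.1% of all genes), and in 19 without Scl KO 1.

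Col4a5 and Col4a6, chains of another collagen IV network, were higher in Scl KO and in the double KO than in wild type. Col4a6 was at 17.6, 24.9 and 37.0 CPM across wild type, 34.4, 31.1 and 32.5 CPM across Lyl1 KO, 61.9, 69.0 and 61.1 CPM in Scl KO, and 155.9, 161.7 and 157.1 CPM in the double KO. Col4a5 averaged 34.1 ± 16.3, 41.4 ± 2.74, 123 ± 2.18 and 251.6 ± 21.2 CPM in the same order (mean ± SD, n = 3). Scl KO and double KO each lay apart from all other groups for both genes. Lyl1 KO overlapped wild type for both, with neither change called (adjusted p = 0.819 for Col4a5 and 0.733 for Col4a6), although its means of Col4a1 and Col4a2 were the lowest of the 4 groups (8.33 and 4.49 CPM). Against wild type, in Scl KO, Col4a6 rose by 1.27 ± 0.20 (adjusted p = 0.00322) and Col4a5 by 1.85 ± 0.25 (adjusted p = 0.00128). In the double KO they rose by 2.58 ± 0.21 and 2.88 ± 0.26 (adjusted p = 3.99e-06 and 9.43e-06). Within wild type both were highest in wild type 3, the library lowest in Col4a1.

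Of 8 other basement membrane genes tested, 1 rose and 3 fell in the double KO against wild type (all genes: 16.4% up, 18.1% down). Col18a1, a basement membrane collagen whose fragment is endostatin, was at 143.8 to 177.7 CPM in wild type, 87.4 to 108.9 CPM in Lyl1 KO, 812.9 to 902.6 CPM in Scl KO and 1199 to 1299 CPM in the double KO, with no overlap between groups. It rose by 2.44 ± 0.13 in Scl KO (adjusted p = 1.39e-06) and 2.95 ± 0.13 in the double KO (adjusted p = 7.41e-08) against wild type. Hspg2, the proteoglycan perlecan, fell by 2.28 ± 0.64 (adjusted p = 0.0166), Nid1, the linker nidogen, by 2.08 ± 0.61 (0.0208) and Agrn, the proteoglycan agrin, by 1.39 ± 0.33 (0.00616) in the double KO. The Hspg2 and Nid1 calls were each lost without wild type 2, double KO 1 or double KO 3 (adjusted p from 0.0535 to 0.0592 for Hspg2 and from 0.0517 to 0.0972 for Nid1), and that of Agrn was kept when any single library was left out. Without the filter the Hspg2 and Nid1 calls were lost as well (0.0743 and 0.0582). Hspg2 and Nid1 were also highest in wild type 2 (25.8 and 13.3 CPM) and lowest in Lyl1 KO 1 (1.78 and 0.567 CPM).

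Among the other laminin chains, 3 of 7 tested fell and 0 rose in the double KO (all genes: 18.1% down, 16.4% up). Lamb1 fell by 1.97 ± 0.66 (adjusted p = 0.0374) and Lama4, an alpha chain of vessels, by 2.00 ± 0.69 (0.0416), and both calls were lost without wild type 1, wild type 2, double KO 1 or double KO 3. Left-out libraries raised the adjusted p to as much as 0.158 for Lamb1 and 0.138 for Lama4. The Lama4 call also needed Lyl1 KO 3, Scl KO 1, Scl KO 2 and double KO 2. With limma-voom and without the filter both calls were lost (0.0727 to 0.109).

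Of the other microfibril and elastic fibre genes, 4 of 11 fell and 0 rose in the double KO against wild type. Among all genes the shares were 18.1% down and 16.4% up. Ltbp2, which binds fibrillin but not TGF-beta, was at 25.1, 31.4 and 21.8 CPM across wild type, 24.5, 21.96 and 17.4 CPM across Lyl1 KO, 7.81, 3.32 and 3.50 CPM in Scl KO, and 1.17, 3.75 and 3.25 CPM in the double KO. In Scl KO it fell by 2.42 ± 0.40 (adjusted p = 0.00448) and in the double KO its change was -3.26 ± 0.42 (adjusted p = 0.000106). Mmrn1, the platelet and endothelial protein multimerin, fell by 1.68 ± 0.35 in the double KO (adjusted p = 0.0033). Fbln5, an elastic fibre protein near the counting limit, fell by 2.63 ± 0.82 (0.0271), a call lost without wild type 1, wild type 2, double KO 1 or double KO 2 (0.0690 to 0.0879). Of the 3 other lysyl oxidases tested, Loxl3 fell by 1.29 ± 0.41 (adjusted p = 0.0304) and Loxl1 by 1.94 ± 0.66 (0.0388), and both calls were lost without wild type 1, wild type 2 or double KO 3 (up to 0.0956 and 0.107). That of Loxl1 was also lost without Lyl1 KO 3, double KO 1 or double KO 2. Without the filter both the Loxl3 and Loxl1 calls were lost (0.1038 and 0.05135). Lox made up 55.7%, 53.4% and 97.7% of all 5 lysyl oxidases per kb in the double KO and 9.35% to 33.7% in the other libraries.

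Interstitial collagens fell in 5 of 11 cases and rose in 0 in the double KO against wild type (all genes: 18.1% down, 16.4% up). Col1a2, a chain of collagen I, fell by 2.64 ± 0.87 (adjusted p = 0.0351), Col1a1, its partner, by 4.05 ± 1.29 (0.0298), Col6a1 by 2.21 ± 0.71 (0.0316) and Col6a2 by 2.34 ± 0.79 (0.0382). Each of these calls was lost without wild type 1, double KO 1 or double KO 3. Leaving out wild type 2 also ended those of Col1a2, Col6a1 and Col6a2, leaving out wild type 3 those of Col1a1 and Col1a2, and leaving out double KO 2 those of Col1a1, Col1a2 and Col6a2, with adjusted p-values of at most 0.135. The Col6a2 call was lost without Lyl1 KO 3 or Scl KO 2 as well. All of these collagen calls were also lost with limma-voom, without the filter and with the replicate number as a block (0.0518 to 0.145). Col1a1 and Col1a2 are themselves fibroblast markers. Col1a1 was at 26.5, 18.4 and 47.7 CPM in wild type but at 132, 28.9 and 2.52 CPM in Scl KO, where Scl KO 1 stood above every other library. Scl KO 1 was also the highest library for Fn1 and the second highest for Sparc.

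TGF-beta genes, whose latent products Ltbp1 binds, were called in both directions in the double KO against wild type, 5 of 19 up and 3 down. Of all genes, 16.4% were called up and 18.1% down. Tgfb1, the main platelet isoform, was at 1378 to 1460 CPM in wild type, 1475 to 1573 CPM in Lyl1 KO, 1004 to 1288 CPM in Scl KO and 444.4 to 680.8 CPM in the double KO. It fell by 1.30 ± 0.16 (adjusted p = 6.63e-05), beside the fall of 1.12 for Ltbp1. Lrrc32, the receptor that holds latent TGF-beta on the surface of platelets and lymphocytes, fell by 1.56 ± 0.38 (0.0079). Tgfb3 was at 0.438 to 1.18 CPM in wild type, 2.07 to 2.90 CPM in Scl KO and 10.8 to 29.7 CPM in the double KO, and rose by 4.49 ± 0.43 (1.40e-05). Smad3, a signal transducer of the pathway, rose by 1.23 ± 0.12 in Scl KO (adjusted p = 0.000196) and by 1.92 ± 0.13 in the double KO (1.10e-06).

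Matricellular glycoproteins were called up in 2 and down in 2 of 11 cases in the double KO (all genes: 16.4% up, 18.1% down). Thbs1, thrombospondin-1 of platelet granules, averaged 19750 CPM in wild type, 20570 in Lyl1 KO, 5787 in Scl KO and 407.1 in the double KO, and fell by 1.77 ± 0.20 in Scl KO (adjusted p = 0.000412) and by 5.60 ± 0.24 in the double KO (6.55e-08). Vwf, von Willebrand factor, fell by 1.36 ± 0.27 in the double KO (0.00238). Smoc2, a relative of Sparc, rose by 3.18 ± 0.61 (0.00186) from 0.556 ± 0.418 to 5.07 ± 1.38 CPM (mean ± SD, n = 3). Ccn2 rose by 2.64 ± 0.94 (0.0467), with the high value in double KO 3 given above. Its call was lost without wild type 1, 2 or 3, Lyl1 KO 3, Scl KO 1 or double KO 3 (0.0612 to 0.429). Other losses came with limma-voom (0.1685), without the filter (0.1698), with the compared libraries alone (0.0606) and with the replicate number as a block (0.1469). Of 13 proteases and inhibitors tested, 2 rose and 0 fell, beside the same shares of all genes. Htra1, a secreted serine protease, rose by 2.98 ± 0.45 (0.000334) and Mmp14, a membrane matrix metalloprotease, by 1.00 ± 0.31 (0.0254). The Mmp14 call was lost without wild type 2, wild type 3 or double KO 2 (0.0669 to 0.115). It was also lost without the filter (0.0840) and with the compared libraries alone (0.0681). Timp3, an inhibitor of such proteases that binds to matrix, rose by 1.40 ± 0.18 in Scl KO (adjusted p = 0.000995), from 3339 ± 612.1 to 8817 ± 912.5 CPM, and was at 4065 ± 208.3 CPM in the double KO.

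**Figure D5:**
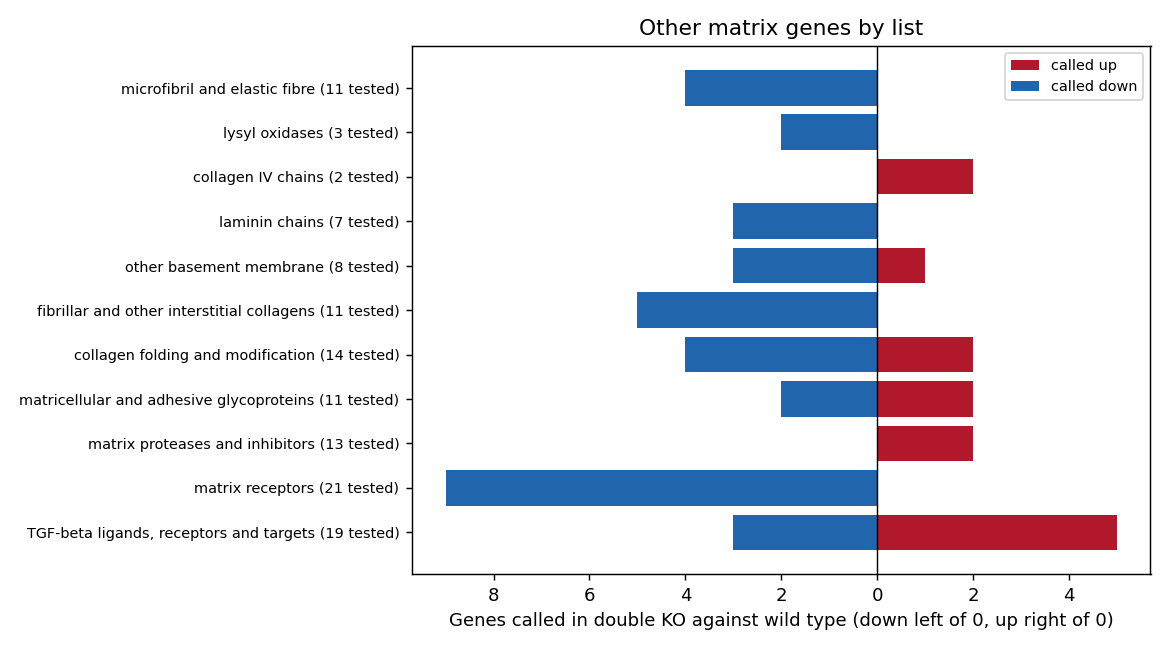
Number of genes called lower (left of 0) and higher (right of 0) in the double KO against wild type in each list of matrix genes other than the 10, with the number tested in brackets. Receptors had 9 of 21 called lower, and both other collagen IV chains tested were called higher. Of all genes tested, 18.1% were called lower and 16.4% higher.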

How the data were processed

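RNA of 12 libraries was sequenced after poly(A)-based, strand-specific library preparation, per the labels' protocols. The authors deposited raw read counts per gene for all 12 libraries in 1 table. Alignment used STAR 2.5.2b and GRCm38 and counting used featureCounts from the Subread 1.5.2 package, with limma also named, per the submitters' processing notes. Per the file headers, counting was for the reverse strand with Ensembl 87 gene models. No source used here gives read length or trimming. Symbols were matched by identifier for 49326 of 49671 genes.

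The 10 genes and all lists were chosen with earlier results of these data known. The count analysis used edgeR 4.0.16 under R 4.3.3. Its default filter by group, with a minimum count of 10 and a minimum total of 15, kept 15399 genes. TMM factors scaled the libraries, and 1 robust quasi-likelihood fit over all 12 libraries gave every comparison. A gene was called where its Benjamini-Hochberg adjusted p over all genes was below 0.05. The common biological coefficient of variation was 0.234. Levels per kb divide CPM by the deposited gene length. The standard error of a log2 change was taken as its size divided by the square root of the quasi-likelihood F statistic. It therefore restates the test of that change. Of each list, up to 4 called genes with the smallest adjusted p over 6 comparisons were taken to be named. Lama3, Emilin2 and Timp2 also met this rule, each called only in the double KO against a single KO, and are not described. Thy1, Pdgfrb, Cdh5, Pecam1, Esam, Cldn5, Emcn, Tie1 and Flt1 are named as markers. Some genes counted in the lists are not reported here. The alternatives were DESeq2 size factors, no filter, at least 1 CPM in 3 libraries, DESeq2 1.42.0's Wald test, limma-voom 3.58.1, the replicate number as a block, the compared libraries alone, and each library left out. The script was tested on simulated data. Promoter windows are RefSeq's for GRCm38.p6. Windows on chromosome 18, inside gene models or in untranslated regions are not shown.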

Additional observations from a re-analysis of the deposited data

Results flagged for a closer look

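The effect of Lyl1 loss differed between libraries with and without Scl, by the interaction term of the edgeR quasi-likelihood fit (adjusted p under 0.05), for 3 of the 10 genes and 16 of the 120 further matrix genes tested (13.3%, beside 9.38% of all genes). Of those, 12 are named below, by a rule that takes the smallest adjusted p over the comparisons. Of the 10, Fbn2 had an interaction of 2.65 on the log2 scale, with a Lyl1 effect of -0.79 beside intact Scl and 1.86 without it. Ltbp1 had -0.98, with effects of 0.05 and -0.93, and Lamc1 had -1.91, with effects of -0.04 and -1.95. Lamc1 was called in all 18 alternatives, and Fbn2 and Ltbp1 lost the call in 10 and 7 of them. The Fbn2 interaction uses the Scl KO values that helped choose that gene, so it is not independent evidence.

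Positive interactions were also called for Col4a6 (1.01), Col18a1 (1.17), the collagen prolyl hydroxylase P4ha1 (0.85), Htra1 (3.96), Tgfb3 (4.26) and Smad3 (0.72). For Htra1 the effects were -0.88 with Scl and 3.08 without it, and for Tgfb3 -1.28 and 2.98. Negative interactions were called for the collagen lysyl hydroxylase Plod1 (-0.62), Thbs1 (-3.89), Vwf (-1.36), the collagen receptor subunit Itga2 (-2.09), the laminin receptor subunit Itgb4 (-1.56) and Tgfb1 (-1.12). The Thbs1 effects were 0.06 with Scl and -3.83 without it. Of these 12 calls, 6 were kept in every alternative and 7 when any single library was left out. With single libraries left out, the adjusted p reached 0.101 for Col4a6, 0.104 for Itgb4, 0.105 for Vwf, 0.0717 for Plod1 and 0.0772 for Smad3. Leaving out Scl KO 1 ended all 5 of these calls, and the other libraries that ended them differed between the genes.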

How the results depend on the processing

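Of the 60 changes of the 10 genes over 6 comparisons, 11 took the other sign in some alternative, and none of these was a called change (edgeR). Among the changes given or plotted, Lox in Scl KO against wild type, at 0.004 in log2, became -0.002 with DESeq2 size factors, -0.004 with the filter of 1 CPM and -0.338 with limma-voom, and lay between -1.081 and 0.354 with single libraries left out. Left-out libraries also gave -1.092 to 0.004 for Fn1 in Scl KO and, in Lyl1 KO, -0.002 to 0.123 for Ltbp1 and -0.132 to 0.061 for Lamc1. With DESeq2, calls over all genes became 103 in Lyl1 KO against wild type (main 11), 1329 in Scl KO against wild type (774) and 2261 in the interaction (1444), and in Lyl1 KO 2 of the 10 genes and 4 of the 120 others were called (main 0). Without a filter, 5 of the 10 were called in the double KO against wild type (main 9). With the compared libraries alone, Lyl1 KO had 29 calls, 1 of them among the other matrix genes, and the double KO against Scl KO had 1742 calls (main 2947), 3 of the 10 (5) and 20 of the others (31). The interaction needs all 4 groups and has no such fit. Of 34 calls of named further genes in the double KO against wild type, 21 were kept in every alternative.

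Leaving out each library in turn gave 5 to 41 calls in Lyl1 KO against wild type, with 0 to 1 of the 10. Scl KO against wild type gave 388 to 1063 calls, with 7 to 13 of the others. Of the 10, Fbn2 is left aside in this comparison, and only Col4a2 was called, without wild type 3. The double KO against wild type gave 3899 to 5528 calls, with 6 to 10 of the 10 and 28 to 60 of the others. The double KO against Scl KO gave 1645 to 3222 calls, with 3 to 6 of the 10 and 19 to 42 of the others. The interaction gave 671 to 1925 calls, with 1 to 4 of the 10 and 7 to 21 of the others. The cause of these shifts was not tested.

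Replicate numbers were not used as pairs, since the labels give them no shared source and not every same-number pair had correlated deviations above 0.1: 10 of 18 pairs across groups did (from -0.04 to 0.44). That 7 of 12 libraries correlated best with their own number is a hint of pairing from the data, not from the design. With the replicate block, Scl KO against wild type had 1226 calls, and of the 10 genes 8 were called in the double KO against wild type, 4 against Scl KO and 3 in the interaction. The lost call was that of Lox. At this depth, values near or under 1 CPM (Fbn2 in wild type and Lyl1 KO, Tgfb3 and Smoc2 in wild type, and Fbln5) rest on few counts.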

Other observations

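Of 21 matrix receptor genes tested, 9 fell and 0 rose in the double KO against wild type, beside 18.1% of all genes called down and 16.4% called up. Itga2, the alpha chain of the collagen receptor of platelets, fell by 2.75 ± 0.31 on the log2 scale (adjusted p = 4.77e-05, edgeR quasi-likelihood test), from 426.2 ± 44.7 CPM to 63.3 ± 33.0 CPM (mean ± SD, n = 3). Itgb4, which binds laminin, fell by 1.19 ± 0.30 in Scl KO (adjusted p = 0.0394, lost without wild type 1 or 2, any Lyl1 KO library, Scl KO 2 or 3 or double KO 2, with values of 0.0501 to 0.121) and by 2.54 ± 0.31 in the double KO (8.45e-05). Itga2b and Itgb3, the chains of the platelet fibrinogen receptor, fell by 0.98 ± 0.18 (0.00152) and 0.93 ± 0.21 (0.00451) in the double KO. Itga2b and Itgb3 are also among the 12 megakaryocyte markers, whose sum averaged 23630 CPM in the double KO against 57960 CPM for wild type.

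Of 14 genes for collagen folding and modification, 2 rose and 4 fell in the double KO against wild type (all genes: 16.4% up, 18.1% down). P4ha1, a collagen prolyl hydroxylase, rose by 0.51 ± 0.11 (adjusted p = 0.00283) and Plod2 by 2.09 ± 0.39 (0.00149), while Mia3, needed for the export of large collagens, fell by 0.43 ± 0.07 (0.000606). The Mia3 libraries were tight, at 99.2 to 104.2 CPM in wild type and 75.1 to 76.5 CPM in the double KO. Plod1 rose by 0.40 ± 0.10 in Scl KO (0.0467), a call lost when any library other than double KO 2 or 3 was left out (0.0542 to 0.184).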
